A study of Mus musculus with 6 samples.

Results

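The Bcl2 family, the caspases, the death receptors and their partners were followed as 39 genes of the apoptosis machinery, chosen by gene symbol, in fetal prostate mesenchyme cells exposed to a high dose of estradiol (E2). Of these genes, 36 were named by at least 1 of the array's probe sets, with 79 probe sets in all among the 22690 on the array, and Bax, Ripk1 and Trp53 were not analysed here. The cells came from the urogenital sinus (UGS) of male CD-1 mouse fetuses at gestation day 17 and were used at first passage, after epithelial cells had been discarded by settling. The E2 group (n = 3 arrays) received 100 nM E2 for 4 days, and the control group (n = 3 arrays) received the ethanol vehicle for the same time. Both groups had spent 3 days in estrogen-free, charcoal-stripped medium and were kept throughout in 690 pM dihydrotestosterone (DHT) with insulin, transferrin and selenium, so the groups compare E2 plus androgen with androgen alone. RNA was read on Affymetrix mouse expression arrays, where a probe set gives the fluorescence of the transcripts it matches, and values are given as linear signal in units, after each array was scaled to its median.

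In apoptosis, the mitochondrial pathway is set off by BH3-only proteins, which neutralise pro-survival relatives of Bcl2 and allow the effectors Bax and Bak1 to open the outer mitochondrial membrane. Cytochrome c then assembles Apaf1 and caspase 9 into the apoptosome, while Diablo and Htra2 relieve the inhibitor of apoptosis proteins (IAPs). The second pathway starts at death receptors such as Fas, which recruit Fadd and caspase 8, and p53 feeds both by inducing several of these genes. In the prostate these pathways are known for the loss of epithelium after androgen withdrawal, and the study asked how high and low E2 doses change gene expression in the mesenchyme.

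None of the 33 genes that could be tested differed between E2 and control at an adjusted p under 0.05 (limma with Benjamini-Hochberg adjustment over 14223 probe sets). Among all 8257 gene symbols tested, 0.569% were called higher and 0.339% lower. A gene was represented by its brightest tested probe set. At an unadjusted p under 0.05, 0 members were higher, against 3.58% of all genes, and 3 were lower, or 9.09% against 4.72% of all genes. The 3 were Pmaip1, Bcl2l11 and Birc2, of which the first pair promote death and the third restrains it. With the linear values as deposited, before scaling, none of them was below this threshold. Counted over probe sets rather than genes, 5 of 64 lay below 0.05 and all 5 were lower, where 7.96% of all probe sets did so in either direction. The share of all probe sets that were lower is not given here. Among the 5 was the dimmer Casp9 probe set, which entered the test through its control mean alone, and this favours a lower value. The plot of the differences shows all 33 genes with their intervals.

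**Figure D1:**
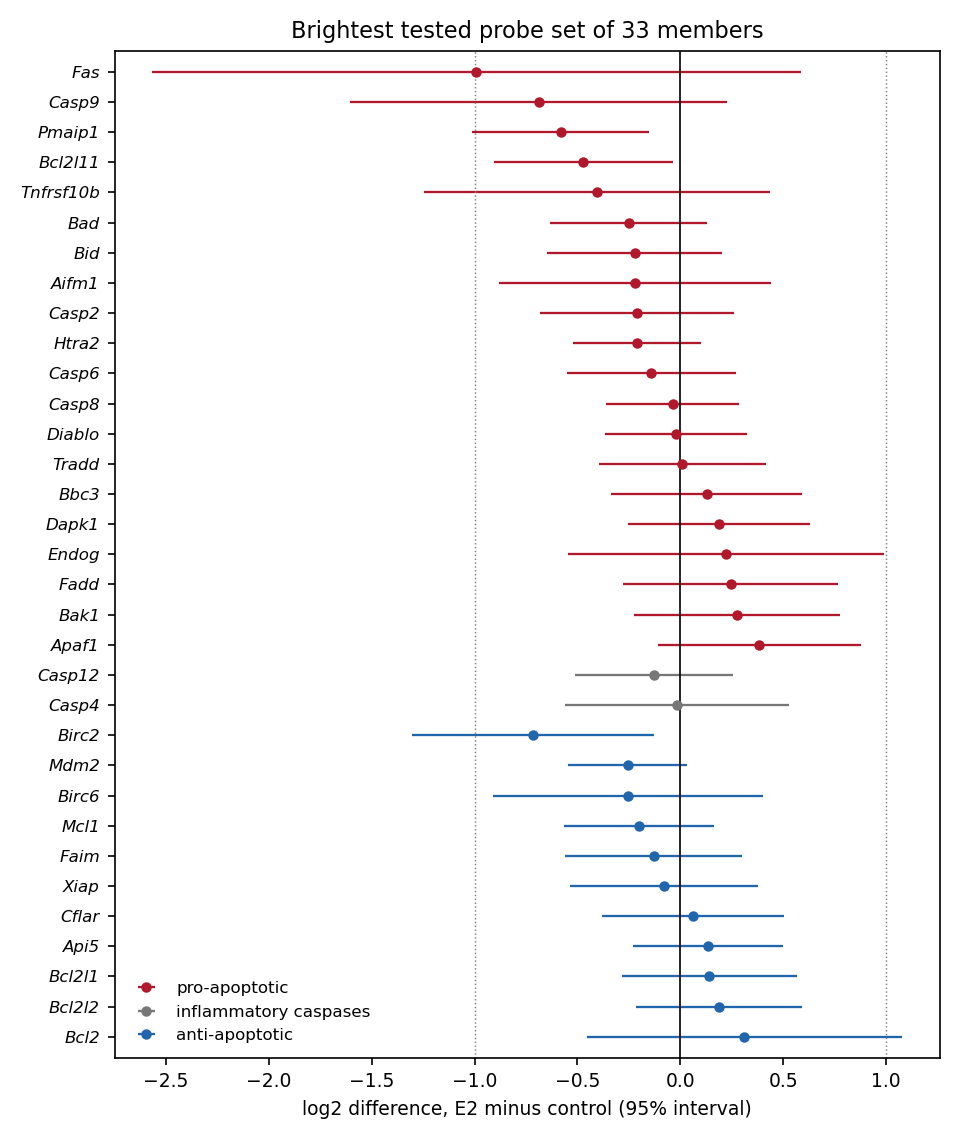
The log2 difference (E2 minus control) of the brightest tested probe set of each of 33 genes, with its 95% interval, for pro-apoptotic genes, inflammatory caspases and anti-apoptotic genes. The dotted lines mark a 2-fold change. The intervals of Pmaip1, Bcl2l11 and Birc2 lie below 0, and Fas has the widest interval.

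The arrays set a bound on the size of most changes in the signal of the brightest probe set. For 27 of the 33 genes (81.8%, against 79.4% of all genes tested) the 95% interval of the difference lay inside a 2-fold change in either direction. For 14 (42.4%, against 46.2% of all genes tested) it lay inside a 1.5-fold change. The 6 genes whose interval reached beyond 2-fold were Pmaip1, Bcl2, Casp9, Birc2, Fas and Tnfrsf10b. Their intervals include a change of that size in at least one direction. Other probe sets of a gene could reach further than its brightest. The log2 interval of the dimmer probe set ran from -1.34 to -0.44 for Bid and from -1.61 to 0.29 for Apaf1. Bik, Bmf and Casp1 lay below 10 units in both groups by every probe set they have and were not tested. All 3 can be read as dim on this array only, since the level of one probe set says nothing about that of another.

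Of 3 estrogen targets that served as a check of the treatment, 1 passed. Pgr, the progesterone receptor gene and a classical estrogen target, had 24.7, 19.6 and 34.3 units in E2 cells, against 5.84, 4.30 and 6.55 units in control cells (adjusted p = 0.0203 from limma). Greb1 and Esr1 also had E2 arrays above all control arrays but did not pass (adjusted p = 0.0698 and 0.369 from limma). The control means of Pgr, Greb1 and Esr1 were 5.6, 1.5 and 4.8 units. All 3 thus entered the test through their E2 mean alone, which favours a higher value. Pgr and Esr1 are also on the study's own list of genes raised on these arrays, so the check is not independent. All 10 mesenchymal markers named on the array were above 10 units in at least 1 group, 8 of them with a lower mean log2 signal in E2 cells. Linear means were higher in E2 cells for Pdgfra, Twist1 and Hoxd13. The 10 markers summed to 14240 to 15010 units on the E2 arrays, against 14790 to 16670 units on the control arrays. The 5 smooth muscle markers summed to 6679 to 7508 units on the E2 arrays, against 6237 to 7866 units on the control arrays. Of 10 epithelial markers 6 were below 10 units in both groups, among them Cdh1 and Epcam, and the 10 together summed to 142 to 155 units on the E2 arrays, against 56.5 to 93.1 units on the control arrays, with Krt18 the 1 of them called higher (adjusted p = 0.0424 from limma). Of 6 endothelial markers 4 were under 10 units in both groups, among them Pecam1 and Cdh5, while Kdr averaged 19.2 units in E2 cells and 19.3 in control cells and Emcn 19.0 units in E2 cells and 19.7 in control cells. All 13 macrophage and leukocyte markers had a lower mean in E2 cells, with 0 called at an adjusted p under 0.05 and 4 lower at an unadjusted p under 0.05 by limma. Their summed signal was 625 to 747 units on the E2 arrays, against 698 to 1146 units on the control arrays, and none of them was at 0. In a culture lysed whole, fewer cells of a type and less RNA per cell cannot be told apart. On 1 array of each group, E2 replicate 2 and control replicate 3, an 18S ribosomal RNA control probe set read 361 and 345 units, compared with 21.7 to 44.9 units on the other 4. Without this pair of arrays, 2 members were lower at an unadjusted p under 0.05 (Bcl2l11 and Birc2) and 1 was higher, Endog, the mitochondrial endonuclease G. The share of all genes at that threshold in this smaller fit is not given here, so these counts are not read as a result about the members.

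Of the BH3-only genes, the sensors that start the mitochondrial pathway, 5 were tested. Of these, 2, Pmaip1 and Bcl2l11, were lower at an unadjusted p under 0.05 (40%, against 4.72% of all genes tested). With only 5 genes, this share is not read as a result about the class. With averaged probe sets, the BH3-only genes lower at that threshold were Bid and Pmaip1. Bid, which caspase 8 cleaves to link death receptors to mitochondria, is read by a pair of probe sets that gave different pictures. Its dimmer probe set had 26.1, 21.2 and 21.3 units in E2 cells, against 40.6, 46.4 and 39.7 units in control cells. All E2 arrays lay well below all control arrays, with a fold of 0.540 (log2 difference -0.89, SE 0.21; limma, adjusted p = 0.0821), the smallest adjusted p of any member probe set. It passed the threshold only when arrays were weighted by quality (adjusted p = 0.0425 from limma), and with 1 array left out its adjusted p ran from 0.121 to 0.412. The brighter probe set of Bid had 52.3, 54.0 and 46.2 units in E2 cells, against 44.5, 69.2 and 67.3 units in control cells. Control replicate 1 here lay below every E2 array, and by limma the groups differed by -0.22 on the log2 scale (SE 0.20, adjusted p = 0.842). The source of the disagreement was not tested.

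Pmaip1, which encodes Noxa, a p53-inducible protein that binds Mcl1, had 26.9, 29.4 and 31.1 units in E2 cells, against 42.7, 38.0 and 50.6 units in control cells. The groups did not overlap, and the mean was 29.1 ± 2.16 units in E2 cells and 43.8 ± 6.34 units in control cells (SD, n = 3 each). The log2 difference of -0.58 (SE 0.20) had an adjusted p of 0.390 from limma. Bcl2l11, which encodes Bim, had 76.7, 88.5 and 63.9 units in E2 cells, against 145.6, 88.2 and 89.9 units in control cells. Its lower mean rested largely on control replicate 1, without which the log2 difference was -0.24 instead of -0.47 (adjusted p = 0.587 from limma with all arrays). Those groups overlapped, while a second Bcl2l11 probe set had separate groups, with 69.9, 62.4 and 62.2 units in E2 cells and 76.1, 72.3 and 78.4 units in control cells (log2 difference -0.22). The other 3 had positive differences of 0.04 to 0.41, so the 5 Bcl2l11 probe sets did not move as one.

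Bad, a BH3-only protein held in check by survival kinases, averaged 59.1 ± 10.7 units in E2 cells and 69.7 ± 3.80 units in control cells by its brightest probe set (SD, n = 3 each; log2 difference -0.25), and its other probe set differed the other way (0.28). Bbc3, which encodes the p53 target Puma, averaged 32.6 ± 5.50 units in E2 cells and 29.6 ± 2.58 units in control cells (log2 difference 0.13). Thus 4 of the 5 BH3-only genes tested (80%, against 56.2% of all genes tested) had a negative difference by the brightest probe set. The class median was -0.25, beside -0.03 for all genes tested. Other probe sets of Bcl2l11 and Bad had positive differences, so the count depends on the probe set taken. Macrophage markers, summed above, were also lower, and a relation to these genes was not tested.

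**Figure D2:**
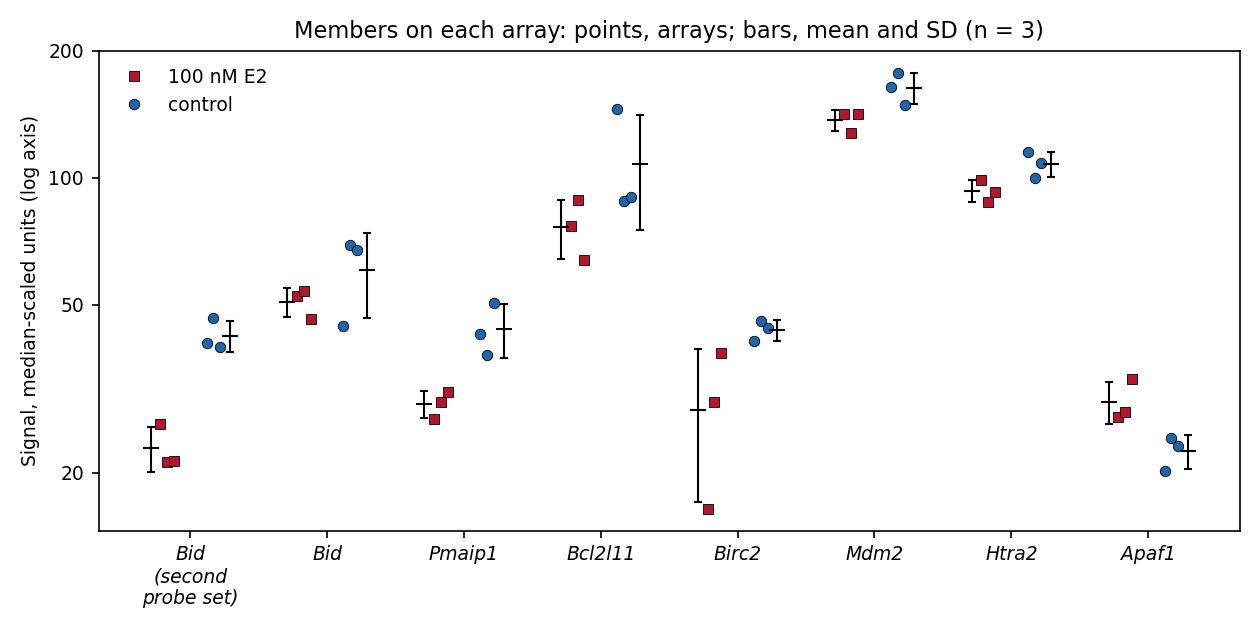
Signal on each array (log axis, median-scaled units) for 7 genes, E2 squares left of control circles, with the mean and SD of the 3 arrays beside each group. The E2 and control arrays separate for the second Bid probe set, Pmaip1, Birc2, Mdm2, Htra2 and Apaf1, and overlap for the brighter Bid probe set and Bcl2l11.

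Promoter sequence is shown for Bid, Bcl2l11 and Birc2, all with a probe set under an unadjusted p of 0.05, as the 250 bases before a RefSeq transcription start (GRCm38.p6), 5′ to 3′ on the gene's strand. Pmaip1 and Casp9 also had such a probe set and are not shown. Of the 36 named genes, 31 matched the RefSeq promoter table, with 43 starts. Capitals mark the estrogen response element half-site (GGTCA or TGACC) and the FoxO core (GTAAACA or TGTTTAC), searched on both strands. Bcl2l11 has starts in 2 places and is shown for each, and for Birc2 the outermost start is shown.
Bid, chr6:120916825-120917074, minus strand: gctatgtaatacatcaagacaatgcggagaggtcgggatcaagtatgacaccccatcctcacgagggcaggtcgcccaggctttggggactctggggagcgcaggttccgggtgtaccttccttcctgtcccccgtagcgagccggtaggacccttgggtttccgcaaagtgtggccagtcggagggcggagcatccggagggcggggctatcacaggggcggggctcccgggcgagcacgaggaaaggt
Bcl2l11, first start, chr2:128125788-128126037, plus strand: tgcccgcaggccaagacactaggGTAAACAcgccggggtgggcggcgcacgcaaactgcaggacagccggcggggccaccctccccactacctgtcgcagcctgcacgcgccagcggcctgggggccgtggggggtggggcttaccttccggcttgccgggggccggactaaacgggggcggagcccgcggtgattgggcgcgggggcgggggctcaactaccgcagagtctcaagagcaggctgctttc
Bcl2l11, second start, chr2:128127325-128127574, plus strand: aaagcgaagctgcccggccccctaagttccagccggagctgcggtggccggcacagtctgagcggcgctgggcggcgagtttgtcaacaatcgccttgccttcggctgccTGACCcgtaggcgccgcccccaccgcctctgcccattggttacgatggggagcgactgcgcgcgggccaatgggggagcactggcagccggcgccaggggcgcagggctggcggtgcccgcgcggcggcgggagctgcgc
Birc2, chr9:7837058-7837307, minus strand: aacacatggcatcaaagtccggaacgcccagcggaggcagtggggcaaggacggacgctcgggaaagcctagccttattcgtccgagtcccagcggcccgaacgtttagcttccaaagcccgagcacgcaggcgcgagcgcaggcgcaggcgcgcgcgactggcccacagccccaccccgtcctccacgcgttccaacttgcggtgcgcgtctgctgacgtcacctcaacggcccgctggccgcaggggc
The windows of Bid and Birc2 hold no match to either motif. The first Bcl2l11 window has a FoxO core that begins 227 bases before the start, and the second has a half-site that begins 140 bases before it. Over all members, 9 of 43 windows (20.9%) held a half-site, beside 35.2% of 32851 promoters of the same length, and 5 (11.6%) held a FoxO core, beside 3.17%. The FoxO windows belonged to Bbc3, Bcl2l11, Casp4 and Mdm2, and several windows of one gene can share sequence. The full palindrome GGTCANNNTGACC was in 0 member windows and in 0.0639% of all. A match is a stretch of letters in this window and does not show a bound site.

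The pore-forming effector that was measured, Bak1, had 24.5, 27.3 and 30.4 units in E2 cells, against 25.2, 22.4 and 20.3 units in control cells. Control replicate 1 lay above the lowest E2 array, and by limma Bak1 differed by 0.28 on the log2 scale (SE 0.23, adjusted p = 0.827). The 4 pro-survival genes, whose proteins hold the effectors shut, had differences from -0.20 to 0.31, none past the test. Mcl1, a short-lived survival protein, had 93.3, 129 and 148 units in E2 cells, against 149, 135 and 135 units in control cells by its brightest probe set. Only E2 replicate 1 stood clearly apart (log2 difference -0.20, SE 0.17, adjusted p = 0.827 from limma), and over 6 probe sets the Mcl1 differences ran from -0.30 to 0.20. Bcl2l2, which encodes Bcl-w, had 67.7, 51.5 and 80.8 units in E2 cells, against 59.9, 59.5 and 53.5 units in control cells. The E2 arrays spanned the control arrays (log2 difference 0.19, SE 0.19, from 0.04 to 0.36 with 1 array left out). Bcl2 itself averaged 18.4 ± 5.42 units in E2 cells and 14.8 ± 4.77 units in control cells (SD, n = 3 each; log2 difference 0.31), with an interval from -0.45 to 1.08. Bcl2l1, which encodes Bcl-xL, averaged 60.3 ± 9.41 units in E2 cells and 55.0 ± 11.4 units in control cells (log2 difference 0.14), while its 2 dimmer probe sets had differences of -0.34 and -0.25.

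Of the apoptotic caspases, the proteases of initiation and execution, all 4 tested had negative differences, from -0.69 to -0.04, and none passed. Among all genes tested, 56.2% had a negative difference. Casp9, the apoptosome caspase, had 15.8, 6.25 and 20.7 units in E2 cells, against 16.8, 18.1 and 28.0 units in control cells. E2 replicate 2 was the lowest array, and the groups overlapped (log2 difference -0.69, SE 0.43; limma, adjusted p = 0.739). It ran from -1.04, without E2 replicate 3, to -0.18 when 1 array was left out, and was 0.05 without both arrays of high 18S signal. A dimmer Casp9 probe set had 8.01, 2.16 and 8.48 units in E2 cells, against 6.83, 25.5 and 22.0 units in control cells (log2 difference -1.57, SE 0.68; limma, adjusted p = 0.587). It entered the test through its control mean alone, and control replicate 1 lay among the E2 arrays. Casp2, an initiator caspase linked to the stress and p53 response, had 55.3, 34.4 and 32.5 units in E2 cells, against 43.0, 47.3 and 47.2 units in control cells, so the E2 arrays lay on both sides of the control arrays (log2 difference -0.21, from -0.45 to -0.07 with 1 array left out). Casp8, the initiator at death receptors, was among the flattest genes at 89.5 ± 5.67 units in E2 cells and 92.0 ± 8.77 units in control cells (SD, n = 3 each; log2 difference -0.04, interval -0.36 to 0.29). The executioner Casp6 averaged 54.5 ± 13.0 units in E2 cells and 59.0 ± 2.41 units in control cells (log2 difference -0.14).

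The inflammatory caspases are counted apart, because they act mainly in cytokine processing and lytic death. Casp12, found at the endoplasmic reticulum, had 74.9, 69.0 and 97.8 units in E2 cells, against 74.5, 100.8 and 87.7 units in control cells, with overlapping groups (log2 difference -0.13, SE 0.18). Casp4, the sensor of cytosolic lipopolysaccharide also known as caspase 11 in the mouse, had 23.1, 32.0 and 20.3 units in E2 cells, against 24.8, 21.9 and 28.6 units in control cells. The Casp4 difference of -0.02 (SE 0.25) turned positive under quantile normalization (0.01) and as deposited (0.04).

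Among the apoptosome and mitochondrial factors, Apaf1 was the 1 member of all 33 whose E2 arrays all lay above its control arrays. This scaffold of the apoptosome had 27.1, 27.8 and 33.3 units in E2 cells, against 20.2, 24.2 and 23.1 units in control cells (log2 difference 0.38, SE 0.23, adjusted p = 0.724 from limma). A second Apaf1 probe set had a difference of -0.66 (SE 0.44), with a mean of 16.5 ± 9.20 units in E2 cells and 25.4 ± 12.8 units in control cells, so the gene has no single direction on these arrays. Htra2, a mitochondrial protease that degrades IAPs once released, had 99.0, 87.8 and 92.3 units in E2 cells, against 115, 100.0 and 108 units in control cells. The groups were separate by a narrow margin (log2 difference -0.21, SE 0.14, adjusted p = 0.769 from limma), and its second probe set also had a negative difference (-0.35, SE 0.18). Diablo, the IAP antagonist, averaged 65.2 ± 5.10 units in E2 cells and 66.1 ± 5.44 units in control cells, a log2 difference of -0.02 (interval -0.37 to 0.33). Endog averaged 24.2 ± 10.1 units in E2 cells and 20.5 ± 7.35 units in control cells, and Aifm1, the apoptosis-inducing factor, 56.1 ± 32.0 units in E2 cells and 60.4 ± 15.4 units in control cells (SD, n = 3 each). The spread of Aifm1 came from E2 replicate 3, at 92.8 units, and the 2 Endog probe sets differed by 0.22 and -0.04. Genes whose groups did not overlap made up 3.03% of the members on the higher side, against 6.01% of all genes tested. On the lower side they were Pmaip1, Htra2, Birc2 and Mdm2, or 12.1%, against 8.54% of all genes tested.

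Birc2, which encodes the ubiquitin ligase cIAP1, had the lowest difference of the IAP genes. It had 16.4, 29.5 and 38.5 units in E2 cells, against 41.0, 45.9 and 44.0 units in control cells. The control arrays were tight, the E2 arrays were spread more than 2-fold, and the groups did not overlap. The mean was 28.1 ± 11.1 units in E2 cells and 43.6 ± 2.48 units in control cells (SD, n = 3 each), which is -0.72 on the log2 scale (SE 0.27; limma, adjusted p = 0.481). E2 replicate 1 decided much of its size, since the difference was -0.37 without that array. Birc6, a giant IAP, had 20.4, 18.3 and 17.5 units in E2 cells, against 26.1, 29.4 and 14.4 units in control cells, where control replicate 3 was the lowest of all arrays (log2 difference -0.25, SE 0.31, from -0.57 to -0.05 with 1 array left out). Its other probe sets differed by -0.18 and 0.29, the second of them under 10 units in control. Xiap, the direct inhibitor of caspases, appears on the study's own list of apoptosis genes for these arrays, so its direction is not independent evidence. Its brightest probe set had 53.5, 56.2 and 51.4 units in E2 cells, against 45.2, 80.6 and 50.1 units in control cells. The E2 arrays lay inside the control range (log2 difference -0.08, SE 0.21), and without control replicate 2 the difference was 0.17. Of its other 3 tested probe sets, 1 differed by 0.0051 and the dimmest pair by 1.04 and 0.79, with control means of 5.83 and 5.92 units and E2 means of 11.1 and 10.7 units. Those 2 entered the test through their E2 mean alone, which favours a positive difference.

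The death receptors were dim. Fas had 8.18, 1.99 and 24.3 units in E2 cells, against 20.3, 17.9 and 8.55 units in control cells. The groups overlapped across most of their range, and the log2 difference of -0.99 carried a standard error of 0.73 (adjusted p = 0.797 from limma). It was -0.05 without E2 replicate 2 and -1.85 without E2 replicate 3. Tnfrsf10b, the mouse receptor for TRAIL, had 13.2, 8.71 and 9.95 units in E2 cells, against 12.4, 15.6 and 13.7 units in control cells, and E2 replicate 1 lay within the control range (log2 difference -0.41, SE 0.39). Downstream of the receptors, the adaptor Fadd had 47.3, 46.9 and 30.8 units in E2 cells, against 25.7, 42.7 and 37.5 units in control cells. The log2 difference of Fadd was 0.24 (SE 0.24), with overlapping groups, and ran from 0.03 to 0.45 when 1 array was left out. Tradd, the adaptor of the TNF receptor, averaged 63.5 ± 3.01 units in E2 cells and 64.3 ± 16.1 units in control cells by its brightest probe set (log2 difference 0.01). Its dimmer probe set had 29.9, 32.9 and 30.3 units in E2 cells, against 22.6, 20.8 and 24.1 units in control cells. These groups were clearly separate and differed on the log2 scale by 0.47 (SE 0.22; limma, adjusted p = 0.633), so the pair of Tradd probe sets again gave different pictures. Dapk1, the death-associated kinase, had 102, 91.2 and 102 units in E2 cells, against 107, 102 and 58.9 units in control cells. The low value was control replicate 3, and without it the Dapk1 difference was -0.09 instead of 0.19, and a second probe set differed by -0.02.

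Of the genes that block death signaling, Cflar, Api5 and Faim differed by -0.13 to 0.13 by the brightest probe set, none past the test. Their 95% intervals lay inside a 1.5-fold change, while that of the dimmest tested Cflar probe set ran from -1.48 to 2.65. Cflar, which encodes the caspase 8 decoy c-FLIP, averaged 43.6 ± 10.8 units in E2 cells and 41.0 ± 1.75 units in control cells (SD, n = 3 each; log2 difference 0.06, interval -0.38 to 0.50). Api5, a nuclear inhibitor of apoptosis, had 117, 86.5 and 134 units in E2 cells, against 105, 95.2 and 103 units in control cells, with E2 arrays on both sides of the control arrays (log2 difference 0.13, SE 0.17). Its other tested probe sets differed by -0.22 and 0.16. Faim, the Fas apoptosis inhibitory molecule, had 38.7, 32.0 and 45.7 units in E2 cells, against 45.9, 42.1 and 38.4 units in control cells (log2 difference -0.13, SE 0.20). Mdm2, the ligase that degrades p53 and is itself a p53 target, had 141, 128 and 141 units in E2 cells, against 164, 177 and 149 units in control cells. Its groups did not overlap, but the log2 difference of -0.25 (SE 0.135) had an adjusted p of 0.683 from limma, and a second probe set had overlapping groups and a difference of 0.14.

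Where a gene had several probe sets, they often disagreed. Of 18 members with at least 2 tested probe sets, 7 had all of them on one side of 0 and 11 had them on both sides. The members on one side were Bid, Casp9, Casp12 and Htra2, all negative, and Bcl2l2, Cflar and Tradd, all positive. For Casp9 and Bcl2l2 this rests on a probe set that entered the test through its higher group alone, which favours that sign. Of the 3 Cflar probe sets, 1 entered through its control mean alone, which favours a negative sign. Its difference was positive (0.58) through control replicate 3, at 0.84 units. Control replicates 1 and 2, at 17.5 and 16.3 units, lay above every E2 array. The widest ranges belonged to Xiap, from -0.08 to 1.04, Apaf1, from -0.66 to 0.38, Casp9, from -1.57 to -0.69, and Bcl2l11, from -0.47 to 0.41. Of the 64 member probe sets tested, 6 had 1 group under 10 units and so rest on signal near background.

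**Figure D3:**
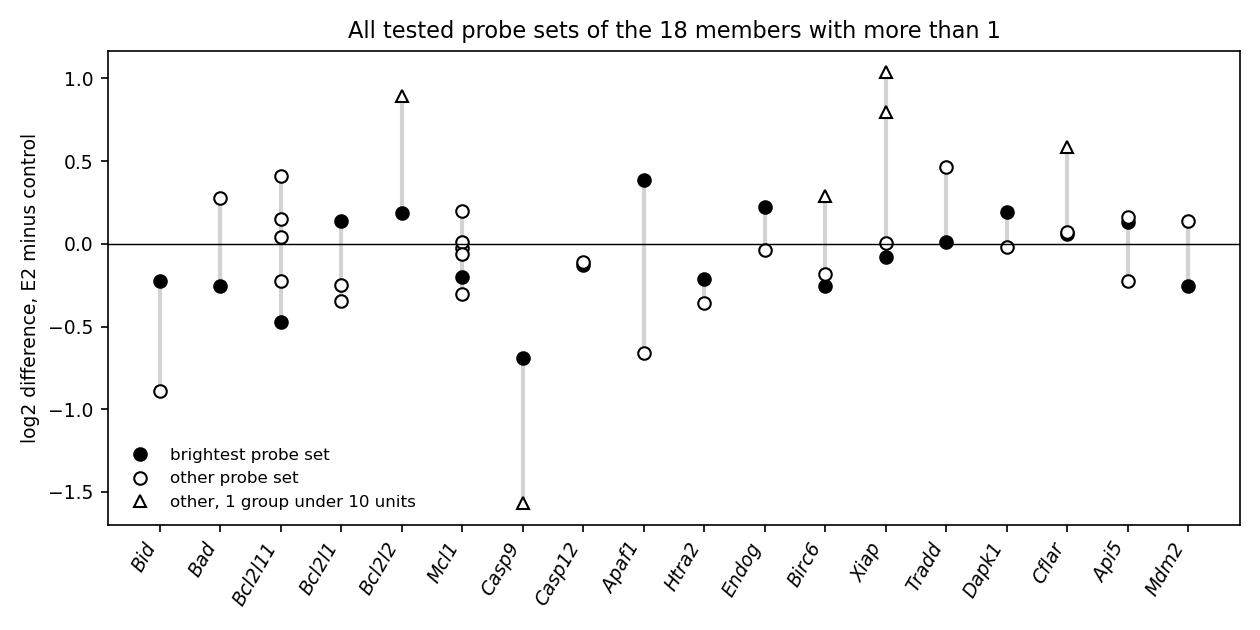
The log2 difference (E2 minus control) of every tested probe set of the 18 members that have more than 1, with the brightest filled and probe sets with a group under 10 units as triangles. In 11 of the 18 genes the points lie on both sides of 0, and the largest differences, 1.04 for Xiap and -1.57 for Casp9, are triangles.

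Set side by side, pro-apoptotic and anti-apoptotic genes lay close together. Of 20 pro-apoptotic genes tested, 7 had a positive and 13 a negative difference, with a median of -0.18 and a range from -0.99 to 0.38. Of 11 anti-apoptotic genes, 5 had a positive and 6 a negative difference, with a median of -0.08 and a range from -0.72 to 0.31. Over all genes tested the median was -0.03, and 56.2% had a negative difference, beside 63.6% of the members. The median of the pro-apoptotic genes was 0.10 lower than that of the anti-apoptotic genes. It changed sign without E2 replicate 2 (0.06) and without control replicate 3 (0.05). Relative to each gene's control mean, the median log2 signal of the pro-apoptotic genes was -0.06, -0.20 and -0.10 on the E2 arrays, against -0.05, 0.11 and 0.03 on the control arrays. For the anti-apoptotic genes it was -0.08, -0.16 and -0.14 on the E2 arrays, against 0.05, 0.05 and -0.11 on the control arrays. On single arrays, pro minus anti was 0.02, -0.04 and 0.04 on the E2 arrays, against -0.11, 0.06 and 0.13 on the control arrays, so the E2 arrays lay inside the control range. E2 replicate 2 was lowest for both kinds, and for all 8257 genes its median was -0.12. No test was made of these medians, since the members were chosen with earlier results known.

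**Figure D4:**
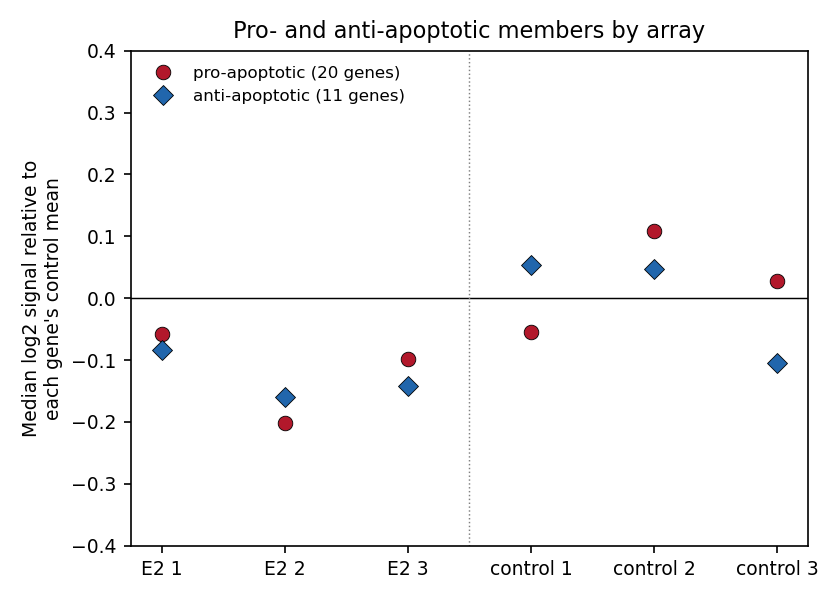
Median log2 signal relative to each gene's control mean for 20 pro-apoptotic genes (circles) and 11 anti-apoptotic genes (diamonds) on each array. Both kinds lie between -0.06 and -0.20 on the E2 arrays, and between -0.11 and 0.11 on the control arrays.

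Further genes of the same pathways were counted in the same way. Of 17 tested regulators and executors of apoptosis outside the members, limma called 0, and 2 (11.8%, against 3.58% of all genes tested) were higher at an unadjusted p under 0.05. Bnip3, a mitochondrial BH3-like protein induced by hypoxia, had 368, 493 and 458 units in E2 cells, against 305, 306 and 325 units in control cells (log2 difference 0.48, SE 0.13; limma, adjusted p = 0.154). All E2 arrays lay above all control arrays. The other was Cradd, an adaptor of caspase 2, with 13.0, 26.1 and 23.5 units in E2 cells, against 6.68, 10.1 and 1.38 units in control cells, near background in control (adjusted p = 0.307 from limma). Cradd entered the test through its E2 mean alone, which favours a higher value and adds to the 11.8%. None of 13 tested genes of death receptor signaling passed, with 0 also at the unadjusted threshold by limma. The smallest p there were those of the TNF receptor Tnfrsf1a (log2 difference -0.17) and the death receptor Tnfrsf21 (-0.42). Of 15 tested p53 targets and relatives limma called 0 and 1 (6.67%, against the same 3.58%) was higher at an unadjusted p under 0.05. It was Perp, a tetraspan membrane protein of desmosomes. Perp is also on the study's own list of genes altered at every E2 dose, so its direction is not independent evidence. Perp had 55.2, 58.9 and 56.8 units in E2 cells, against 38.5, 34.2 and 37.1 units in control cells (log2 difference 0.64, SE 0.17, adjusted p = 0.164 from limma), and the epithelial markers summed above were higher on the same arrays, a relation that was not tested. Cdkn1a, the cell cycle inhibitor p21 and the best known p53 target, had a log2 difference of 0.08 (SE 0.11), and the p53 target Phlda3 one of -0.33 (SE 0.16, adjusted p = 0.642 from limma).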

How the data were processed

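RNA of 6 samples, 3 of each group as assigned from their labels, was hybridized to 1 array each. The authors converted the scanned images with Affymetrix software and deposited linear intensity values, 1 signal per probe set and array. For the signal algorithm, background correction, scaling and versions, the entry is "not given in the sources used here". Array medians ran from 13.8 to 21.9 units as deposited, so each array was brought to a common median of 17.3 units. Of 22690 probe sets, 64 controls and those whose deposited mean was under 10 units in both groups were set aside, leaving 14223. Their log2 values were compared (E2 over control) in R 4.3.3 with limma 3.58.1, using lmFit and a trended eBayes, as a two-sided test. Benjamini-Hochberg adjustment covered all probe sets kept, at a threshold of 0.05. The code was tested on simulated data.

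Gene symbols were those of the array's annotation, brought up to date through gene identifiers. In it 20393 probe sets had 1 symbol and 691 several, which name no gene here, and 1555 were not listed. A gene is given by its brightest tested probe set, by mean log2 signal. Named with values on every array were members with any tested probe set at an unadjusted p under 0.05, and Xiap. So were the members with the 2 smallest p in each role class by brightest probe set. Bid entered only through the small p of its dimmer probe set, since its brightest met neither rule. Other tested probe sets are given, singly or as a range, where they differed in sign or unadjusted call, and the array values of the second Bcl2l11 and Tradd probe sets were added after they were seen. The members and lists were chosen with earlier results of these data known. Alternatives covered normalization (quantile, as deposited), a pseudocount of 16, no filter or one at 100 units, an untrended eBayes, array weights, a replicate block, arrays left out, averaged probe sets and the class of inflammatory caspases. The small number of arrays limits the precision. Whether the 3 samples of a group were separate cell preparations is not stated, so a p-value reflects only differences between these samples, and those may be technical.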

Additional observations from a re-analysis of the deposited data

How the results depend on the processing

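No member passed the adjusted threshold by its brightest probe set under any alternative. Of 342 values of the 24 named probe sets under alternatives, 330 kept their direction and their side of the threshold, 1 passed (the dimmer Bid probe set with array weights, log2 difference -0.89), and 11 reversed. Reversed without both arrays of high 18S signal were Casp9 (0.0497) and Dapk1 (-0.0311), and Casp4 was 0.0078 with quantile normalization and 0.0433 as deposited. With 1 array left out, Casp4 ran from -0.2055 to 0.1227, Xiap from -0.244 to 0.1744, Dapk1 from -0.0862 to 0.3426, Api5 from -0.0041 to 0.3114 and Faim from -0.2564 to 0.001. Members lower at an unadjusted p under 0.05 numbered 0 as deposited and 1 with a filter at 100 units or without a variance trend. With quantile normalization they numbered 2 (Birc2 and Pmaip1), and with averaged probe sets 4 (Bid, Birc2, Casp9 and Pmaip1). Bcl2l11 was thus lost under both settings. With 1 array left out, the number of lower members ran from 1 to 5. It was 1 without E2 replicate 1 (Pmaip1) or control replicate 3 (Bcl2l11) and 5 without E2 replicate 3. Higher members numbered 1 without a trend (Apaf1), 1 without both 18S arrays (Endog) and 0 to 2 with 1 array left out, the 2 being Api5 and Bcl2l2 without E2 replicate 2. The share of all genes at that threshold is not given for each alternative, so these counts show only how the calls depend on the setting. The pro-apoptotic median was -0.0866 with array weights, -0.0871 with averaged probe sets, -0.0477 without both 18S arrays and -0.1677 to -0.0556 with 1 array left out. The anti-apoptotic median was -0.2004 with a filter at 100 units, where 6 members remained, and -0.1694 to 0.0725 with 1 array left out. Pro minus anti was 0.0587 without both 18S arrays and -0.1954 to 0.0572 with 1 array left out. The causes were not tested.

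Over all probe sets limma called 70 higher and 36 lower, 39 and 7 as deposited, 15 and 1 without a trend, and 113 and 71 with array weights. With a filter at 100 units 41 were higher. With 1 array left out, 37 to 75 were higher, the fewest when E2 replicate 1 (37) or E2 replicate 3 (42) was absent. The lower calls then ran from 11 to 31, at 17, 14 and 11 when control replicates 1, 2 or 3 were absent and 19 when E2 replicate 1 was. Same-numbered arrays did not deviate together, with correlations of 0.008, -0.053 and -0.058 for replicates 1, 2 and 3, and 2 of 6 arrays correlated best with their own number. With the replicate number as a block, 61 probe sets were called higher and 27 lower, 3 members were lower and 0 higher at an unadjusted p under 0.05, the medians were the same, and no member was called.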
